A study of Rattus norvegicus with 7 samples.

Results

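Neonatal rat ventricular cardiomyocytes transfected with miR-302d-3p were compared with the same cells transfected with cel-miR-67, a nematode miRNA used here as the reference although the labels do not name it a control. The comparison covered every gene whose mean level over the 7 libraries of the series was at least 1 RPKM (a read count divided by the length of the gene and a total for the library), which left 12330 of the 17141 genes listed, 11311 of them protein-coding. It used 2 of the 7 libraries, and each miRNA had 1 library, so no difference below has a replicate check and none was tested. All cells came from wild-type Wistar rats at postnatal day 0. The ventricles were digested with trypsin, the cells that had not attached to plastic after 2 h were taken as mostly cardiomyocytes, and each miRNA was transfected at 25 nM with a lipid reagent 24 h after plating. RNA was taken 72 h after transfection. The other 5 miRNAs were miR-373-3p, miR-590-3p, miR-1825, miR-199a-3p and miR-33b*, which are used here only to place the levels.

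MicroRNAs pair through a short seed near their 5′ end with sites mostly in the 3′ untranslated regions of messenger RNAs and lower the stability and translation of those messages. The miR-302 family is known for its high level in embryonic stem cells, for shortening the first gap phase of the cell cycle there, and for promoting the proliferation of heart muscle cells through the Hippo pathway. Its members share their seed with miR-373-3p, and TGF-beta receptor, cell cycle inhibitor and Hippo kinase genes are among the reported targets of the family. Newborn cardiomyocytes are at the stage where they leave the cell cycle, build mature sarcomeres and turn from glucose towards fatty acids as fuel.

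A change below is log2 of (RPKM + 1) after miR-302d-3p over (RPKM + 1) after cel-miR-67, and a gene is called 2-fold or 1.5-fold higher or lower when this change passes log2 of 2 or of 1.5. A read-rate ratio is the plain ratio of RPKM with no addition, and its exact 95% interval comes from the whole reads behind the values. The interval covers counting error only and compares 2 libraries, not 2 treatments. Reads summed over the listed genes were between 22616067 and 31963293 in the 7 libraries, with 24836246 for cel-miR-67 and 31963293 for miR-302d-3p. The total by which the deposited values were divided was not this sum: the listed reads were 110% of it in cel-miR-67 and 92.1% in miR-302d-3p, and how the total was made is not given in the labels. The mitochondrial genome took 41.0% of these reads after cel-miR-67 and 30.6% after miR-302d-3p, in a range of 27.7% to 41.4%. With equal reads over all listed genes, mitochondrial ones included, the median change of all genes moved from 0.02 to 0.23, so list medians are given beside that of all genes. All 10 cardiomyocyte markers were detected in both libraries, 3 of them at least 1.5-fold lower after miR-302d-3p and 0 higher (median -0.40). The ventricular light chain gene Myl2, the highest of them by change (0.10), was at 6838 and 7354 RPKM after cel-miR-67 and miR-302d-3p, and Mb, the lowest (-2.58), at 252 and 41.2 RPKM.

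Over all genes tested, 162 (1.31%) were at least 2-fold higher after miR-302d-3p and 260 (2.11%) at least 2-fold lower. At 1.5-fold, 630 (5.11%) were higher and 902 (7.32%) lower. The split depended on the scaling: with equal reads over all listed genes there were 293 higher and 167 lower at 2-fold, and 1610 higher and 496 lower at 1.5-fold. With equal reads outside the mitochondrial genome there were 169 higher and 253 lower at 2-fold, and 664 higher and 871 lower at 1.5-fold. The lower side was fuller in muscle and matrix lists than over all genes. Of 134 muscle genes measured, 34 (25.4%) were at least 1.5-fold lower and 10 (7.46%) higher, and of 191 matrix genes 52 (27.2%) were lower and 10 (5.24%) higher. Of 283 stress genes, 37 (13.1%) were lower and 12 (4.24%) higher. Metabolic genes were spread much like all genes, with 18 (6.72%) lower and 17 (6.34%) higher of 268. The median change was -0.24 for muscle, -0.29 for matrix, -0.05 for stress and 0.02 for metabolic genes, beside 0.02 for all genes.

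**Figure D1:**
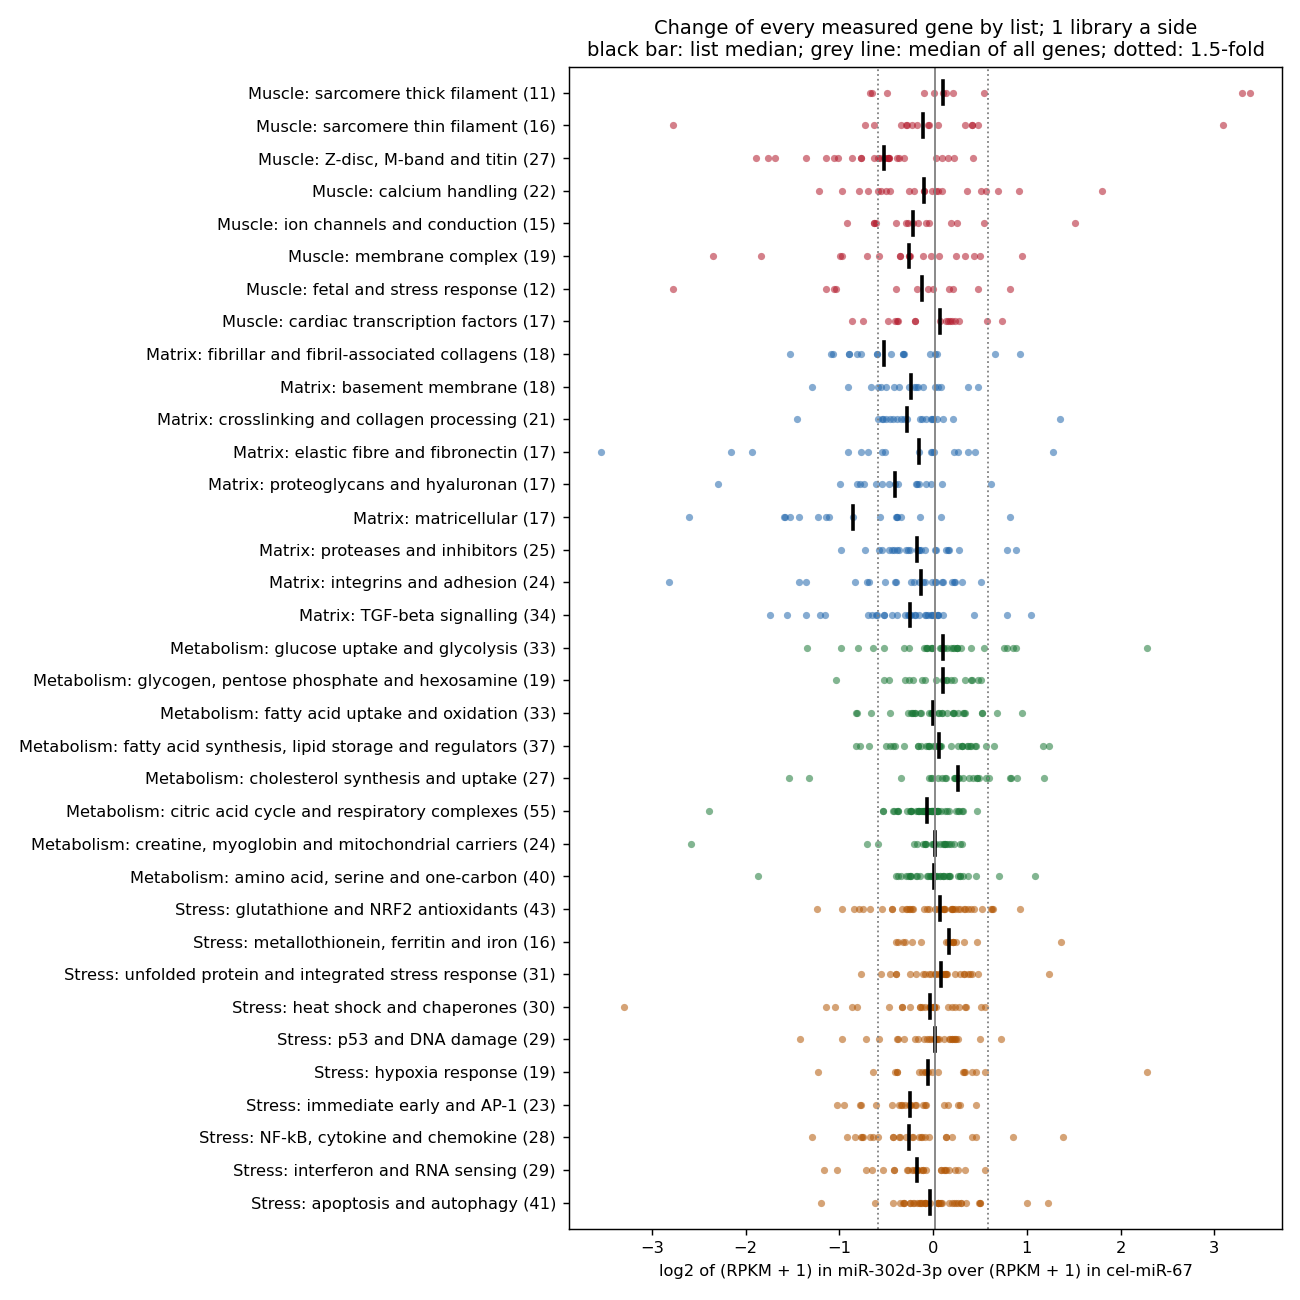
Change after miR-302d-3p (x axis, log2 of RPKM + 1 over the same in cel-miR-67) of every measured gene in 35 lists, 1 row a list with the number measured in brackets; points are genes, black bars list medians, the grey line the median of all genes and the dotted lines 1.5-fold. The Z-disc row (median -0.53), the collagen row (-0.52) and the matricellular row (-0.85) lie farthest to the left, and the cholesterol row (0.27) farthest to the right.

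The Z-disc, M-band and titin list, whose proteins anchor the filaments of the sarcomere, had the lowest median of the muscle lists, -0.53, with 12 of 27 genes at least 1.5-fold lower and 0 higher. Myom2, an M-band protein that crosslinks thick filaments, was at 34.0 RPKM after cel-miR-67 and 8.44 RPKM after miR-302d-3p, beside 6.32 after miR-373-3p and 5.56 to 26.4 in the remaining 4 libraries. Fhl1, a LIM-domain protein that binds titin, was at 259 RPKM after cel-miR-67 and 75.7 RPKM after miR-302d-3p, beside 108 after miR-373-3p and 123 to 322 in the remaining 4. The miR-302d-3p library was the lowest of the 7 for Fhl1 but lay within the range of the others for Myom2. Tcap, which caps the Z-disc end of titin, went from 60.4 to 18.1 RPKM (17.8 after miR-373-3p and 20.7 to 25.6 in the remaining 4), so every other miRNA was also below cel-miR-67. Smaller differences were found for the actin-binding gene Synpo2 (-1.36), the small heat shock protein gene Cryab (-1.14), the titin-binding stress gene Ankrd1 (-1.06) and the Z-disc gene Mypn (-1.01).

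Xirp2, an actin-binding protein of the intercalated disc, stood lowest in the thin filament list. It was at 63.0 RPKM after cel-miR-67, 8.34 after miR-302d-3p, 9.89 after miR-373-3p, 24.1 after miR-33b*, 53.2 after miR-1825, 21.9 after miR-199a-3p and 40.7 after miR-590-3p. Both members of the shared-seed pair were thus below every other library, and the read-rate ratio to cel-miR-67 was 0.132 (0.127 to 0.137). The thin filament list as a whole had a median of -0.11, with 1 of 16 genes at least 1.5-fold higher and 3 lower, and with the other 5 miRNAs averaged as the reference it was 0.094 relative to all genes. The higher one was Tnnt1, the slow skeletal troponin T. Its level was 0.228 RPKM after cel-miR-67, from 6 reads, and 9.50 RPKM after miR-302d-3p, from 382 reads. It was 8.67 after miR-373-3p, 3.54 after miR-33b* and between 0.389 and 0.773 in the other three, and the read-rate ratio was 41.6 with a wide interval of 18.9 to 114. Lmod1 (-0.73) and Lmod2 (-0.63), which nucleate actin filaments, were lower.

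The thick filament list had a median of 0.10, and its higher members were the atrial light chain genes Myl4 (876 against 83.2 RPKM) and Myl7 (194 against 18.8 RPKM). Myh6, the alpha myosin heavy chain, was at 818 against 1307 RPKM (-0.68), and the light chain kinase Mylk at -0.65. Outside the lists, Csrp2, a LIM protein of muscle, held rank 10 on the higher side. It was at 53.3 RPKM after miR-302d-3p, 41.3 after miR-373-3p, 14.1 after cel-miR-67 and 9.21 to 21.1 in the remaining 4. For Myl4, Myl7, Tnnt1 and Csrp2 the pair with the shared seed lay above all 5 other libraries.

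The membrane complex list, which links the cytoskeleton through dystrophin to the matrix, had a median of -0.26, with 5 of 19 genes at least 1.5-fold lower and 1 higher. Sspn, sarcospan, was at 6.98 RPKM after miR-302d-3p and 6.27 after miR-373-3p, below 27.5 after cel-miR-67 and 12.4 to 18.4 in the remaining 4, and dystrophin itself (Dmd) at 25.2 against 51.3 RPKM. The sarcoglycan genes Sgcd (-0.97) and Sgcb (-0.70) were lower too. Bves, a cyclic AMP-binding membrane protein, was the 1 higher member (56.7 against 28.8 RPKM, with 30.9 to 55.0 in the remaining 4). The caveolar muscle gene Murc was at 11.3 against 45.5 RPKM and Cmya5, myospryn, at 2.26 against 10.6 RPKM.

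Calcium handling and channel genes were mixed. The calcium list had a median of -0.10 (0.018 relative to all genes when set against the other 5 miRNA libraries), with 3 of 22 genes higher and 4 lower at 1.5-fold. Sri, a calcium-binding regulator of the release channel, was at 106 RPKM after miR-302d-3p and 83.2 after miR-373-3p, above 29.6 after cel-miR-67 and 31 to 48.5 in the remaining 4. Casq1, a calcium store protein of skeletal muscle, was at 241 against 127 RPKM, but the remaining 4 ran from 78.7 to 296. The sodium-calcium exchanger Slc8a1 was at 516 against 318 RPKM. The release channel Ryr2 (44.5 against 88.0 RPKM), its partner Trdn (-0.79) and the pump inhibitor Sln (-1.22) were lower, and Sln was low after every miRNA other than cel-miR-67 (4.93 to 9.18 against 19.1 RPKM). The ion channel list had a median of -0.22, but lay close to all genes when set against the other 5 miRNA libraries. In it 1 of 15 genes was higher and 4 lower. The higher one was Cacna1h, a T-type calcium channel of the fetal heart (7.39 against 1.94 RPKM), and the lower ones included the potassium channels Kcnj3 (0.820 against 2.44 RPKM) and Kcnj11 (2.75 against 4.80 RPKM). The sodium channel subunit Scn3b was at 6.03 against 22.8 RPKM, with 4.78 to 19.2 in the remaining 4.

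Of 12 fetal and stress response genes, 4 were lower and 1 higher (median -0.11). Rcan1, a calcineurin inhibitor and readout of calcineurin activity, was at 76.4 against 158 RPKM, below the 135 to 165 of the remaining 4 libraries. Spp1, osteopontin, was the higher one at 42.7 against 23.6 RPKM. Of 17 cardiac transcription factor genes 2 were lower, Irx3 (-0.86) and Mef2c (-0.75), and 1 higher, Hopx (0.74). The list's median was 0.07.

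**Figure D2:**
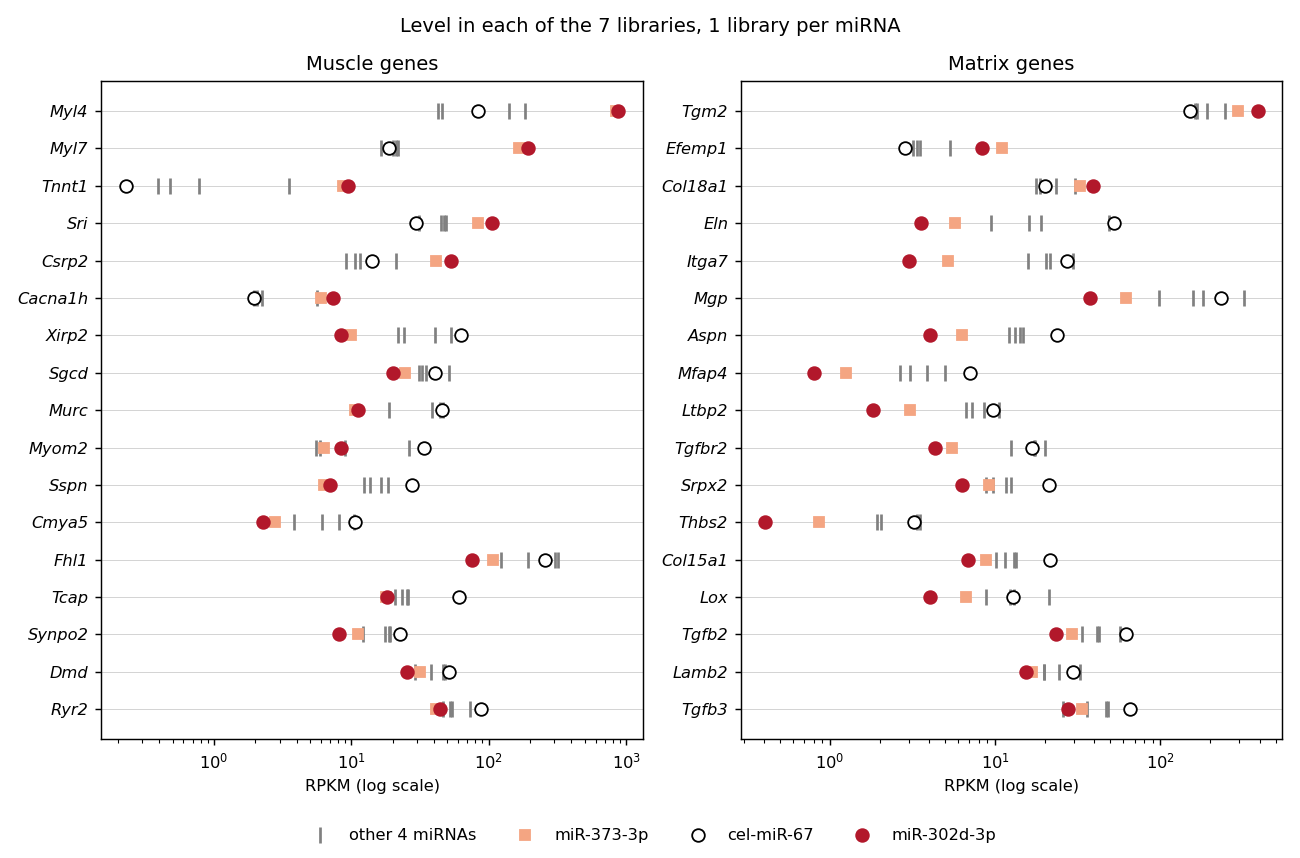
RPKM (x axis, log scale) of 17 muscle genes and 17 matrix genes, 1 gene a row, in the miR-302d-3p library (filled circle), the cel-miR-67 library (open circle), the miR-373-3p library (square) and the other 4 (ticks). The filled circle and the square lie close together in most rows, for example at 8.34 and 9.89 for Xirp2, apart from the 21.9 to 63.0 of the other 5 libraries.

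Matrix genes gave the fullest lower side against cel-miR-67. With the other 5 miRNA libraries averaged as the reference, every matrix list median stayed below that of all genes but lay nearer to it. The matricellular list, made of secreted regulators that bind the matrix without building it, had a median of -0.85, with 9 of 17 genes at least 1.5-fold lower, 8 of them 2-fold lower, and 1 (Spp1) higher. Mgp, the matrix inhibitor of calcification, was at 232 RPKM after cel-miR-67, 37.4 after miR-302d-3p and 62.5 after miR-373-3p, and between 98.2 and 324 in the remaining 4. Srpx2 was at 6.34 against 21.1 RPKM, with 9.26 after miR-373-3p, and Thbs2, a thrombospondin, at 0.407 against 3.21 RPKM. In both of these genes the miR-302d-3p library was the lowest of the 7. The CCN family genes Nov (-1.52), Wisp2 (-1.43) and Ctgf (-1.14) were lower, as was periostin (Postn, -1.23), but Nov was as low as 5.67 RPKM elsewhere, below its 9.75 RPKM after miR-302d-3p.

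Eln, which encodes elastin, the core of the elastic fibre, had the lowest change of all list members, -3.54. Its level was 52.3 RPKM after cel-miR-67, 3.58 after miR-302d-3p, 5.70 after miR-373-3p, 9.47 after miR-33b*, 16.1 after miR-1825, 48.9 after miR-199a-3p and 19.1 after miR-590-3p. Elastin was therefore low after several miRNAs and lowest in the shared-seed pair. The read-rate ratio to cel-miR-67 was 0.0683 (0.0619 to 0.0753). Next came 2 elastic fibre partners, the microfibril gene Mfap4 (0.798 against 7.02 RPKM) and the latent TGF-beta binding gene Ltbp2 (1.82 against 9.77 RPKM, with 6.64 to 10.5 in the remaining 4). The list of 17 elastic fibre and fibronectin genes had a median of -0.15, since 6 were lower and 1 higher, and the higher one was Efemp1, fibulin-3 (8.31 against 2.84 RPKM).

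Collagen genes had a median of -0.52, with 9 of 18 at least 1.5-fold lower and 2 higher. The abundant fibrillar collagens did not reach 1.5-fold, with Col1a1 going from 60.1 to 47.9 RPKM and Col3a1 from 327 to 262 RPKM, both by -0.32. Larger differences were found in less abundant chains: Col15a1, a basement membrane-zone collagen, was at 6.84 against 21.6 RPKM, Col8a2 at 0.433 against 2.05 RPKM and Col5a3 at 4.19 against 9.87 RPKM. All 3 were lowest of the 7 libraries after miR-302d-3p. The higher members were Col18a1, the endostatin precursor (39.0 against 20.0 RPKM), and Col16a1 (11.3 against 6.77 RPKM), the latter within the 10.5 to 15.7 RPKM of the remaining 4 libraries. Basement membrane genes had a median of -0.23 with 3 of 18 lower and 0 higher, among them the laminin chains Lamb2 (-0.91) and Lamc1 (-0.67). Among 21 crosslinking and collagen processing genes (median -0.28) Lox (-1.46) and Loxl3 (-0.59), which oxidise lysines for crosslinking, were lower, whereas the transglutaminase Tgm2 was at 391 RPKM after miR-302d-3p and 298 after miR-373-3p, above 152 after cel-miR-67 and 164 to 249 in the remaining 4.

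Proteoglycan genes had a median of -0.41, with 6 of 17 lower and 1 higher. The small leucine-rich proteoglycan Aspn was at 4.04 against 23.7 RPKM, with 6.31 after miR-373-3p and 12.2 to 14.8 in the remaining 4. Dcn, decorin, was at 7.55 against 16.0 RPKM, and Vcan, the large hyaluronan-binding versican, was the higher one at 37.6 against 24.2 RPKM. Aspn has 2 rows in the table, and the other gave -2.27.

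Receptors and signals of the matrix were also lower more often than higher, beside 7.32% lower and 5.11% higher of all genes at 1.5-fold. Of 24 integrin and adhesion genes, 6 were lower and 0 higher (median -0.13). Itga7, the laminin-binding integrin chain of muscle, was at 27.2 RPKM after cel-miR-67, 3.00 after miR-302d-3p, 5.21 after miR-373-3p, 15.8 after miR-33b*, 20.3 after miR-1825, 29.7 after miR-199a-3p and 21.4 after miR-590-3p. The 5 libraries without the shared seed did not reach down to the pair, and the read-rate ratio was 0.110 (0.101 to 0.120). Its partner Itgb1 was at 355 against 632 RPKM and below all other libraries (405 to 672), and Itgb3 at 3.24 against 10.4 RPKM. Of 34 TGF-beta signalling genes (median -0.25) 9 were lower and 2 higher. The ligand genes Tgfb2 (23.5 against 61.8 RPKM), Tgfb3 (27.7 against 65.4 RPKM) and Inhba (5.44 against 17.9 RPKM) and the receptor gene Tgfbr2 led the lower side, and Id2, a target of BMP signals, was the largest on the higher side (18.3 against 8.37 RPKM), followed by the cardiac ligand Bmp10 (0.79). Of 25 protease and inhibitor genes 2 were lower, among them Adamts15 (-0.72), and 2 higher, Mmp12 (0.88) and Mmp15 (0.79). The list's median was -0.17.

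The summed markers of other cell types were lower than after cel-miR-67, as were many matrix genes. Over 11 fibroblast markers measured the summed level was 1424 RPKM after cel-miR-67, 722 after miR-302d-3p, 852 after miR-373-3p and 921 to 1421 in the remaining 4, and their median change was -0.44. Much of the sum was S100a4, at 572 and 110 RPKM, while Pdgfra was at 5.54 and 4.0 RPKM and Lum at 5.52 and 5.98 RPKM. None of these markers was at 0. Smooth muscle (11 markers, summed 1429 and 1275 RPKM, median -0.39), endothelial (5 markers, 24.4 and 18.2 RPKM), epicardial (7 markers, 31 and 22.9 RPKM), macrophage (8 markers, 23.0 and 16.1 RPKM) and erythroid sums (3 markers, 7.01 and 4.19 RPKM) were lower as well, as was the sum of 3 Schwann and neural markers (22.2 and 16.0 RPKM), although the median of these 3 was 0.28. The smooth muscle marker Cnn1 went the other way, at 235 against 88.8 RPKM. In the remaining 4 libraries the smooth muscle sum was 1597 to 1940 RPKM and the macrophage sum 18.9 to 20.8 RPKM. There the endothelial sum was 14.7 to 16.6 RPKM, below that after miR-302d-3p, and the epicardial sum 21.9 to 25.1 RPKM. For these 2 types cel-miR-67 was the high library. The sum of 10 cardiomyocyte markers was 21807 and 19537 RPKM with a median of -0.40. The part of these cells in the matrix result was not tested, and in such bulk libraries fewer cells of a type and less RNA per cell cannot be told apart.

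Metabolic genes had nearly as many higher as lower members, with single genes of large change. Slc2a1, the glucose transporter GLUT1 of fetal and proliferating cells, was at 21.6 RPKM after cel-miR-67, 109 after miR-302d-3p, 69.8 after miR-373-3p, 38.0 after miR-33b*, 22.3 after miR-1825, 23.7 after miR-199a-3p and 27.2 after miR-590-3p. It was highest in the miR-302d-3p library by a wide gap, with a read-rate ratio of 5.03 (4.75 to 5.32). The insulin-responsive transporter Slc2a4 (GLUT4) was at 6.99 against 13 RPKM, below the 14.9 to 22.0 RPKM of the remaining 4. Glycolysis genes as a list had a median of 0.10, with 5 of 33 higher and 4 lower. The phosphofructokinase gene Pfkl (28.5 against 14.9 RPKM) and the enolase gene Eno1 (816 against 482 RPKM) were higher, but Pfkl reached 32.3 RPKM in the remaining 4. The pyruvate dehydrogenase kinase gene Pdk2 (8.38 against 22.8 RPKM) and Aldoc (6.90 against 14.6 RPKM) were lower. Mpc1, a subunit of the carrier that brings pyruvate into mitochondria, was at 36.0 RPKM after miR-302d-3p and 54.1 after miR-373-3p, and between 135 and 180 RPKM in the 5 other libraries.

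Cholesterol genes had the highest median of the metabolic lists, 0.27, with 5 of 27 at least 1.5-fold higher and 2 lower. Fdft1, squalene synthase, was at 37.1 RPKM after miR-302d-3p and 30.2 after miR-373-3p, above 19.5 after cel-miR-67 and 12.9 to 21.2 in the remaining 4. In this gene the pair with the shared seed lay above the other 5 libraries. Fdps, farnesyl diphosphate synthase, was at 82.6 against 46.0 RPKM, Mvd, mevalonate diphosphate decarboxylase, at 16.9 against 9.15 RPKM and Acat2, a thiolase, at 28.1 against 18.3 RPKM. The lower members were the cholesterol exporters Abca1 (4.26 against 14.2 RPKM, with 6.66 to 9.78 in the remaining 4) and Abcg1 (3.95 against 11.4 RPKM). Not every higher member of the list is named here. The VLDL receptor gene Vldlr was at 12.6 against 51.3 RPKM, with 32.3 to 45.2 in the remaining 4.

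Genes of cholesterol synthesis are known to share promoter elements for the sterol-responsive factor SREBP and for the CCAAT-binding factor NF-Y. In RefSeq windows of 300 bases (250 before to 50 after the start of the gene, build GRCr8), the letters CCAAT on either strand, with overlapping matches allowed, were found in 13 of 19 genes of the cholesterol list that had a window (68.4%) and in 2902 of 7582 protein-coding genes tested (38.3%). The motif was chosen with the values known, and a match is no evidence of binding. The 4 windows below were picked among members of the upper part of the list because each holds 2 matches, and Acat2 (0.59) and Dhcr7 (0.49), which lie above 2 of them by change, had 0 matches. They belong to Fdps (change 0.83, chr2:176804767-176805066, minus strand), Mvd (0.82, chr19:67414925-67415224, minus strand), Idi1 (0.47, chr17:66547475-66547774, minus strand) and Hmgcs1 (0.47, chr2:53382054-53382353, plus strand), shown 5′ to 3′ on the strand of the gene with CCAAT or its complement ATTGG in capitals.
Fdps: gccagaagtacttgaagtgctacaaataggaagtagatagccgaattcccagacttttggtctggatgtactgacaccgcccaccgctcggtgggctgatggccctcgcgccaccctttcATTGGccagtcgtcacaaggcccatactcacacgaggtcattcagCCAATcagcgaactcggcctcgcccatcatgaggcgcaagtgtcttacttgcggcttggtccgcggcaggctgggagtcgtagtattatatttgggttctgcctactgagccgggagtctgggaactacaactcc
Mvd: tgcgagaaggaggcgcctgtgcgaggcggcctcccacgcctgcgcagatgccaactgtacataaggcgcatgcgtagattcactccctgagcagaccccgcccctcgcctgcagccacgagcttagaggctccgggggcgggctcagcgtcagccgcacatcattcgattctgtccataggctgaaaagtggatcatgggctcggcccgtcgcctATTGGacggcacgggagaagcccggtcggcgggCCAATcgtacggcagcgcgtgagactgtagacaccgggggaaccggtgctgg
Idi1: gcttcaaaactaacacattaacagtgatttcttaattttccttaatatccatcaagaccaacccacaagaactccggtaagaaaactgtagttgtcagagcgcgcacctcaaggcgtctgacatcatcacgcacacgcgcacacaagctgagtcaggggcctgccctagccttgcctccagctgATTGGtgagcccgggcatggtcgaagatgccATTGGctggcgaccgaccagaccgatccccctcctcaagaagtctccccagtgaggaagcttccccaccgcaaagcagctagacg
Hmgcs1: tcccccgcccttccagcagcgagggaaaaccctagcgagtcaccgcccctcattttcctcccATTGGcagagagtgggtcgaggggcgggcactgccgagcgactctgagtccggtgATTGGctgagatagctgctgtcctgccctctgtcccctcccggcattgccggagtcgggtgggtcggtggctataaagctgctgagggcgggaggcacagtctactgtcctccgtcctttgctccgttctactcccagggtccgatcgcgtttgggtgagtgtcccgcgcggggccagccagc

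Fatty acid synthesis and storage genes had a median of 0.06, with 3 of 37 higher and 3 lower. Agpat2, an acyltransferase of glycerolipid synthesis, was at 24.5 against 9.80 RPKM and the desaturase gene Scd2 at 176 against 77.5 RPKM, though Scd2 ran up to 253 RPKM in the remaining 4. The lipid droplet gene Cidea (-0.82) and the monoglyceride lipase gene Mgll (-0.78) were lower. In the list of fatty acid uptake and oxidation (median -0.00, 2 of 33 higher and 3 lower) the uncoupling protein gene Ucp2 (32.5 against 16.4 RPKM) and the fatty acid binding gene Fabp3 (656 against 407 RPKM) were higher. Lpl (-0.83), which frees fatty acids from lipoproteins, and the acyl-CoA dehydrogenase genes Acadl (-0.81) and Acadvl (-0.67) were lower.

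Nuclear genes of the citric acid cycle and respiratory complexes stayed near all genes, with a median of -0.07 and 0 of 55 higher and 1 lower. The 1 was Cox8b, a cytochrome oxidase subunit of heart and muscle, at 3.79 against 24.1 RPKM, with 5.93 after miR-373-3p and 7.14 to 17.6 in the remaining 4. The largest difference on the higher side was Mdh1 (0.47). The mitochondrial genome's own genes were lower: all 13 protein genes had a change below 0 (median -0.61), 8 of them at least 1.5-fold, and their summed level was 36821 RPKM after cel-miR-67 and 22148 after miR-302d-3p, in a range of 18134 to 33649 over the 6 miRNAs. Myoglobin (Mb), the oxygen store of muscle, was at 252 RPKM after cel-miR-67, 41.2 after miR-302d-3p, 51.6 after miR-373-3p, 146 after miR-33b*, 39.3 after miR-1825, 235 after miR-199a-3p and 55.6 after miR-590-3p. Its low level was thus shared with 3 other miRNAs. In its list of 24 genes for creatine, myoglobin and mitochondrial carriers (median 0.02) 0 were higher and 3 lower, with Ckmt2 (-0.71) and Slc25a12 (-0.59) the others.

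Amino acid and one-carbon genes had a median of 0.01, with 2 of 40 higher and 1 lower. Got1, the cytosolic aspartate aminotransferase, was at 38.5 against 17.6 RPKM with 27.5 to 34.2 in the remaining 4, and Slc7a3 (0.70) was the other higher gene. The glutamate transporter gene Slc1a3 was at 4.33 against 18.5 RPKM, with 6.72 after miR-373-3p and 10.3 to 23.1 in the remaining 4. Of 19 glycogen, pentose phosphate and hexosamine genes (median 0.10) 0 were higher and 1 lower, Rpia (-1.04), a pentose phosphate isomerase. The glycogen primer gene Gyg1 had the largest higher value, 0.51. Isyna1, which makes inositol from glucose 6-phosphate, was at 12.3 against 3.80 RPKM.

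**Figure D3:**
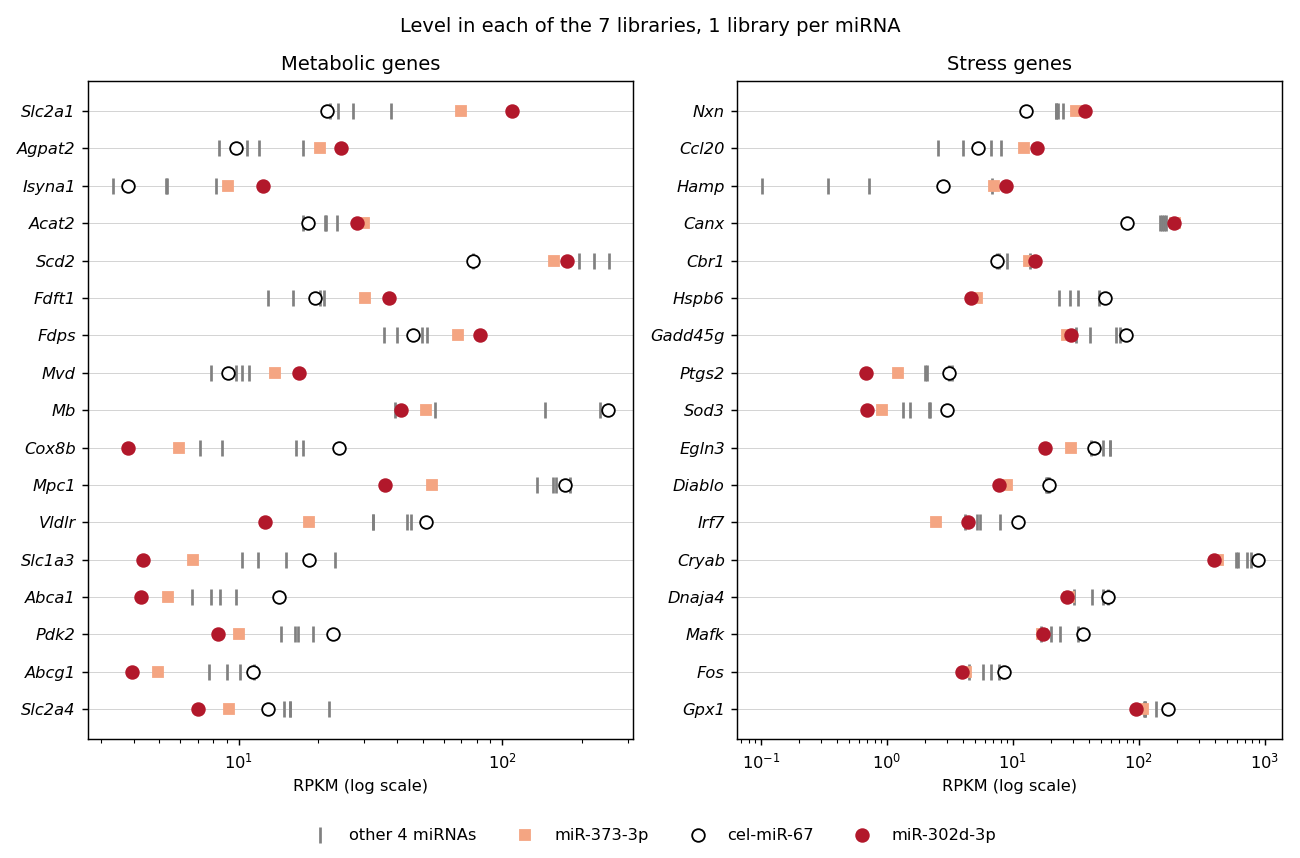
RPKM (x axis, log scale) of 17 metabolic genes and 17 stress genes, 1 gene a row, in the miR-302d-3p library (filled circle), the cel-miR-67 library (open circle), the miR-373-3p library (square) and the other 4 (ticks). Slc2a1 at 109 RPKM stands to the right of all other libraries (21.6 to 69.8), and Hspb6 at 4.64 RPKM to the left of them (5.18 to 54.3).

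Among the stress lists, heat shock and chaperone genes held the lowest single member, Hspb6, a small heat shock protein of heart and smooth muscle. It was at 54.3 RPKM after cel-miR-67, 4.64 after miR-302d-3p, 5.18 after miR-373-3p, 23.3 after miR-33b*, 48.3 after miR-1825, 28.6 after miR-199a-3p and 32.9 after miR-590-3p. The pair with the shared seed was far below the other 5, and the read-rate ratio was 0.0855 (0.0737 to 0.0988). The list as a whole had a median of -0.03, with 5 of 30 lower and 0 higher. The lower ones were Hspb6, Cryab, the co-chaperone genes Dnaja4 (-1.05) and Dnajb4 (-0.82) and Bag3 (-0.86), and of these Cryab and Bag3 also belong to the Z-disc list.

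Inflammatory and immediate early genes were lower more often than higher, as were all genes at 1.5-fold (7.32% lower and 5.11% higher). That split of all genes depended on the scaling. Of 28 NF-kB, cytokine and chemokine genes (median -0.26), 9 were lower and 2 higher. Ptgs2, the inducible cyclooxygenase, was at 0.679 RPKM after miR-302d-3p, 1.23 after miR-373-3p and between 2.01 and 3.29 in the other 5 libraries, and Socs3, a feedback inhibitor of cytokine signals, at 3.27 against 7.05 RPKM. The chemokine gene Ccl20 (15.6 against 5.32 RPKM) and the interleukin-33 receptor gene Il1rl1 (27.0 against 14.5 RPKM) were the higher ones. Of 23 immediate early genes (median -0.25), 5 were lower and 0 higher, with Mafk at 17.3 against 36.3 RPKM and Fos at 3.93 against 8.52 RPKM. Of 29 interferon and RNA sensing genes (median -0.17), 4 were lower and 0 higher, with Irf7 at 4.40 against 11.1 RPKM and Ifit2 at 2.19 against 5.47 RPKM. For Irf7 the remaining 4 ran from 4.20 to 7.95 RPKM, so cel-miR-67 was the high library. Against the other 5 miRNA libraries the interferon median was 0.084 relative to all genes. The 8 macrophage markers lay between 0.747 (Cd14) and 3.52 RPKM (C1qa) in the miR-302d-3p library (median change -0.17), and their part in these lists was not tested.

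By their medians, oxidative and protein stress lists stayed closer to all genes. Of 43 glutathione and NRF2 antioxidant genes (median 0.07), 4 were higher and 6 lower. The reductase gene Cbr1 (15 against 7.44 RPKM) and the glutathione transferase gene Gstp1 (0.63) led the higher side, and the extracellular superoxide dismutase gene Sod3 (0.700 against 3.01 RPKM), Gsta1 (-0.97) and the glutathione peroxidase gene Gpx1 (94.3 against 170 RPKM) the lower side. Nucleoredoxin (Nxn), outside the lists, was at 37.2 against 12.8 RPKM, with 22.0 to 25.2 in the remaining 4. Of 31 unfolded protein response genes (median 0.09) 1 was higher and 1 lower. The higher one was the chaperone calnexin (Canx), at 191 against 80.2 RPKM, with 195 after miR-373-3p and 147 to 165 in the remaining 4, so that cel-miR-67 was the low library. The lower one was Herpud1, at 25.2 against 43.6 RPKM, and there too cel-miR-67 was apart from the 15.2 to 27.5 RPKM of the others. Of 16 metallothionein and iron genes (median 0.17), 1 was higher and 0 lower, hepcidin (Hamp), at 8.80 against 2.82 RPKM. The transferrin receptor gene Tfrc was next (0.47), and the lowest was Cp (-0.40).

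Of 29 p53 and DNA damage genes (median 0.02), 1 was higher, Tp53i11 (0.73), and 3 lower. Gadd45g, a growth arrest gene, was at 29.0 against 79.1 RPKM, Btg1, an antiproliferative gene, at 24.4 against 48.7 RPKM, and Cdkn1a, the p21 inhibitor of cyclin-dependent kinases, at 5.44 against 9.61 RPKM. Of 19 hypoxia genes (median -0.05), 1 was higher, Slc2a1, and 2 lower, Egln3 and Pdk1. Egln3, an oxygen-sensing hydroxylase, was at 18.1 RPKM after miR-302d-3p and 28.9 after miR-373-3p, and between 41.6 and 58.9 RPKM in the other 5. Of 41 apoptosis and autophagy genes (median -0.03), 2 were higher and 2 lower. Birc5, survivin, which also acts in mitosis, was at 17.3 against 6.82 RPKM, within the 12.6 to 24.2 RPKM of the remaining 4, so that cel-miR-67 was the low library. The cell death gene Bcl2l11 was at 4.67 against 1.83 RPKM. Diablo, a mitochondrial promoter of apoptosis, was at 7.82 RPKM after miR-302d-3p, 8.92 after miR-373-3p and 18.5 to 19.4 in the other 5. Gabarap, which acts in autophagosome formation, was at -0.62.

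Genes reported as targets of the miR-302 and miR-373 family had a median of -0.56, with 12 of 26 at least 1.5-fold lower, 4 of them 2-fold lower, and 0 higher. Over all genes, 7.32% were lower at 1.5-fold and 2.11% at 2-fold. Tgfbr2, the type II TGF-beta receptor, was at 16.8 RPKM after cel-miR-67, 4.36 after miR-302d-3p, 5.47 after miR-373-3p, 17.4 after miR-33b*, 17.1 after miR-1825, 20.0 after miR-199a-3p and 12.6 after miR-590-3p. Lats2, a kinase of the Hippo pathway, was at 17.2 RPKM after cel-miR-67, 6.58 after miR-302d-3p, 6.49 after miR-373-3p, 14.2 after miR-33b*, 13.3 after miR-1825, 19.4 after miR-199a-3p and 15.6 after miR-590-3p. In both genes the 2 libraries that share the seed lay below the other 5. The D-type cyclin genes Ccnd1 (5.14 against 18.6 RPKM) and Ccnd2 (-0.93) and Dazap2 (17.8 against 53.4 RPKM) were lower. Rbl2, a pocket protein that restrains cell cycle entry, was at -0.56 and did not reach 1.5-fold, Stk4, another Hippo kinase, was at 0.15, and Nr2f2 was under the limit of 1 RPKM. Whether a site for the miRNA lies in any of these messages was not analysed here.

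Cell cycle genes give the context, and there the direction rested on the cel-miR-67 library. Of 29 genes of the G2 and M phases 21 were at least 1.5-fold higher and 0 lower (median 0.72), led by cyclin B1 (Ccnb1) at 50.2 against 10.4 RPKM. Over all genes, 5.11% were higher at 1.5-fold. The other 5 miRNAs had Ccnb1 between 44.6 and 107 RPKM, so the cel-miR-67 library was the low one. The summed level of the list was 317 RPKM after cel-miR-67, 568 after miR-302d-3p, 649 after miR-373-3p and 618 to 1257 in the remaining 4, so miR-302d-3p had the lowest sum of the 6 miRNAs. With the other 5 miRNAs averaged as the reference the median was -0.46 relative to all genes. Of 29 S phase genes (median 0.10), 1 was higher, Tk1 (0.90), and 0 lower, and Tk1 was at 10.7 RPKM after miR-302d-3p, 5.27 after cel-miR-67 and 10.9 to 17.0 in the other 5. Of 19 cell cycle inhibitor genes (median -0.39), 3 were lower, Gadd45g, Btg1 and Cdkn1a, and 1 higher. The higher one was Cdkn1c, the imprinted p57 inhibitor, at 12.8 RPKM after miR-302d-3p, 7.26 after miR-373-3p and 1.22 to 3.88 RPKM in the other 5.

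**Figure D4:**
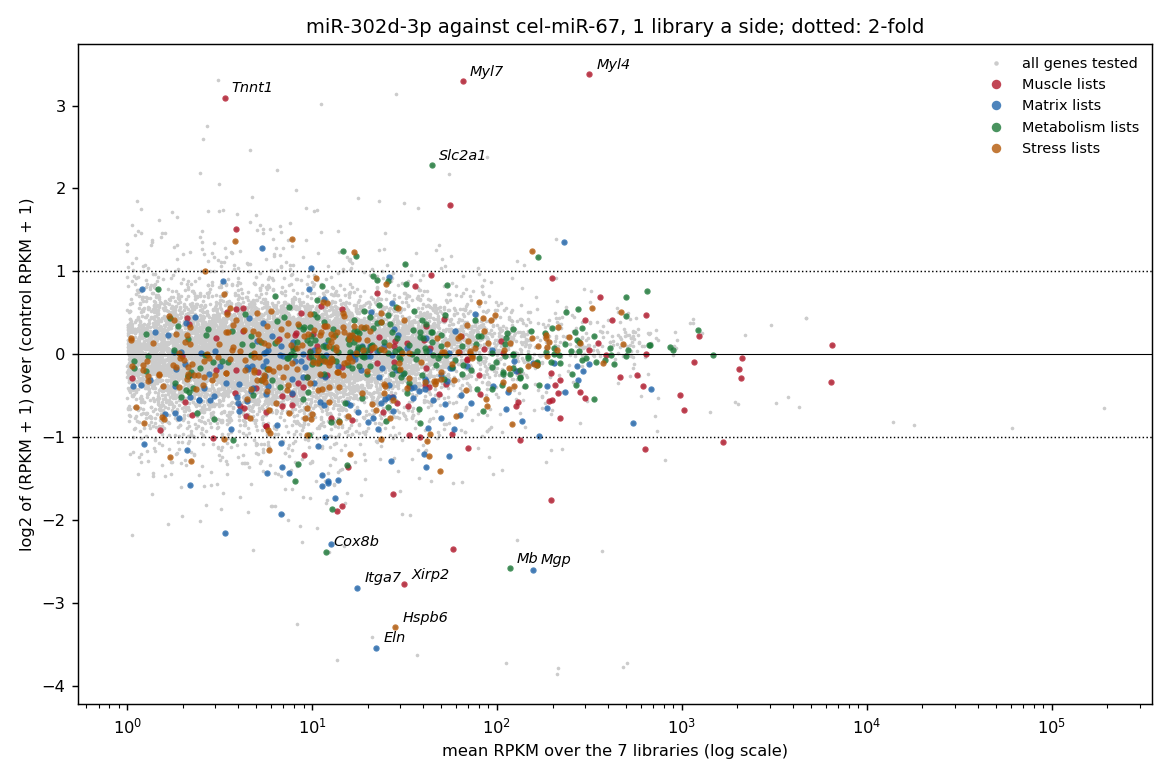
Change after miR-302d-3p (y axis, log2 of RPKM + 1 over the same in cel-miR-67) against the mean RPKM over the 7 libraries (x axis, log scale) for all 12330 genes (grey), with the muscle, matrix, metabolic and stress lists in colour and dotted lines at 2-fold. The named genes lie from 3.38 (Myl4) to -3.54 (Eln), and they include abundant genes such as Mgp, Mb and Myl4.

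Ranks 9 to 30 among protein-coding genes, counted over those whose mean reached 5 RPKM, brought in further genes. On the higher side, Mrps12, a protein of the mitochondrial ribosome, was at 19.8 against 4.66 RPKM, but at 13.8 to 24.8 RPKM in the remaining 4. Cdh3, P-cadherin, was at 21.6 RPKM after miR-302d-3p and 18.3 after miR-373-3p, and between 4.46 and 8.98 in the other 5, and Frmd4b, a scaffold protein, at 12.2, 6.30 and 2.68 to 3.77 RPKM in the same order. Tmeff1, a transmembrane protein with follistatin-like domains, was at 61.2 against 16.6 RPKM, and the beta-catenin inhibitor Ctnnbip1 at 7.45 against 1.96 RPKM. The rest of the higher side, apart from genes given above, was Tceal7 (1.58), Pnma2 (1.54), Dok4 (1.49), Tro (1.48), Flywch2 (1.46), Mtfp1 (1.39), Limd2 (1.38), the tubulin gene Tubb2b (1.37), the adaptor gene Sh3kbp1 (1.32) and Tstd3 (1.30). The calponin gene Cnn1 (1.39), a smooth muscle marker, was at 151 to 298 RPKM in the remaining 4, so cel-miR-67 was the low library.

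On the lower side of the same ranks, Fgf1, a growth factor of cardiomyocytes and other cells, was at 2.46 RPKM after miR-302d-3p, 4.46 after miR-373-3p and 10.8 to 20.2 in the other 5. Clip4, a CAP-Gly domain protein, was at 2.63 RPKM after miR-302d-3p, 3.43 after miR-373-3p and 10.9 to 14.7 in the other 5. In both genes the pair was separate from the other libraries by more than 2-fold. T-cadherin (Cdh13) was at 2.66 against 14.4 RPKM and Zfp367, a zinc finger protein, at 4.13 against 16.8 RPKM. Pxdc1 was at -2.31 and C1qtnf5, a secreted C1q-family protein, at -1.80. Most other genes of these ranks are the muscle, matrix and metabolic genes given above.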

How the data were processed

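The authors deposited RPKM values per gene, in 1 table of the series and in 1 file per library, and the 7 single files held the same values. RNA libraries followed a TruSeq mRNA protocol, per the labels' protocols. The submitters' processing notes name STAR 2.7, edgeR and the rat build Rnor_6.0. Which counter, annotation and strand setting was used is not given in the sources used here, so reads of overlapping genes cannot be told apart.

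From the deposited RPKM, whole reads were recovered for 100% of genes, with a tolerance of 0.002 to 0.05 reads, giving divisors (library totals behind the RPKM) of 22674410 for cel-miR-67 and 34708142 for miR-302d-3p. The reads summed over listed genes are 110% and 92.1% of these, so the divisors are no plain sum of listed reads. With these divisors 3 reads in a gene of 2 kb are 0.0662 and 0.0432 RPKM. Changes used a pseudocount of 1 RPKM and a mean of at least 1 RPKM. Exact 95% intervals are binomial (Clopper-Pearson). Simulated libraries (8270 genes) held counting error only, around the mean level over the 7 libraries, with no variation between cultures. Small sets of genes of at least 1 RPKM were given a fold. The limit of 2-fold was passed by 84% of those at 0.25-fold, 70% at 0.4-fold, 82% at 2.5-fold and 100% at 4-fold. Among unchanged genes of at least 1 RPKM in a random part of the table, 0.20% passed. That share is no rate of false calls for 2 unreplicated libraries. Python 3.11.15, numpy 2.4.6, pandas 2.3.3 and scipy 1.17.1 were used.

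The members and the 47 gene lists (1169 genes, 1122 matched and 988 measured) were chosen with earlier results of these data known. Genes were named by rule: list members past 1.5-fold by size, at least the 2 highest and 2 lowest where there were as many, the highest or lowest member where none passed, ranks 9 to 30 in each direction among protein-coding genes of at least 5 RPKM, and 6 reported targets. Markers, Col1a1, Col3a1 and the genes of the 4 promoters shown are named beside them. Some genes that this rule names are not reported here. Alternatives were another pseudocount, filter, scaling or reference.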

Additional observations from a re-analysis of the deposited data

How the results depend on the processing

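No paired analysis was possible because each miRNA had 1 library. No replicate could be left out for the same reason, and small differences in genes of few reads are within counting error. Beside 162 higher and 260 lower genes at 2-fold and 630 and 902 at 1.5-fold, a pseudocount of 0.1 RPKM gave 301 and 462 at 2-fold and 967 higher at 1.5-fold, and one of 5 RPKM gave 42 and 99, and 241 and 402. A mean of at least 5 RPKM, with 7846 genes, gave 84 and 169, and 350 and 534. Equal reads over all listed genes, an alternative chosen after seeing the data, gave 293 and 167, 1610 and 496, and 8 lists at least 0.1 above the median of all genes in place of 4. With the mean of the other 5 miRNA libraries as the reference in place of cel-miR-67 there were 43 and 127, 270 and 596, and 7 lists above and 16 below in place of 4 and 27. Equal reads outside the mitochondrial genome, no filter on low values and protein-coding genes only left every count within 1.5-fold. Against the other 5 libraries the medians relative to all genes of thin filament (0.094), calcium handling (0.018), interferon (0.084), endothelial (0.13), epicardial (0.0013) and G2 and M phase lists (-0.46) changed sign, as did the changes of Birc5 (-0.12), Ccnb1 (-0.36), Col16a1 (-0.15), Herpud1 (0.12), Mrps12 (-0.00020), Scd2 (-0.048), Sln (0.050) and Tk1 (-0.30). With a mean of at least 5 RPKM the Schwann and neural list kept 1 of its 3 markers, Ncam1, at -1.0 relative to all genes. In each case the cause was not tested.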

Other observations

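A group of abundant rows without gene symbols of their own was lower after miR-302d-3p, and was picked out after its values were seen. AABR07015042.1, annotated as a miRNA, was at 1535 RPKM after cel-miR-67, 115 after miR-302d-3p, 88.5 after miR-373-3p, 272 after miR-33b*, 1015 after miR-1825, 409 after miR-199a-3p and 125 after miR-590-3p. AABR07015055.2 (-3.78), AABR07015080.1 (-3.79) and AABR07015079.1 (-3.86), also annotated as miRNAs, and the protein-coding AABR07015081.2 (-3.72) and AABR07015057.1 (-3.63) had much the same change. Mir675, a miRNA encoded within the H19 transcript, was at 31.5 RPKM after cel-miR-67, 168 after miR-302d-3p, 128 after miR-373-3p and 194 after miR-33b*, and between 29.2 and 33.8 in the other three. No test was made of any of these rows.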
